A study of Mus with 8 samples.

Results

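The TAM receptors are 3 receptor tyrosine kinases, encoded by Axl, Mertk and Tyro3, and their 2 classical ligands are encoded by Gas6 and Pros1. These 5 genes were chosen by their names as a receptor and ligand family, and all 5 were found among the 21154 gene symbols measured. The study asked how an ethanol extract of the green alga Botryococcus terribilis (BTEE) alters the response of RAW264 cells to lipopolysaccharide (LPS), a bacterial cell wall component that activates macrophages. RAW264 is an established mouse macrophage-like cell line. BTEE-treated cells received the extract at 0.2 mg/mL for 24 h and then 1 ng/mL LPS for 17 h or 6 h, and control cells received the same LPS for the same time with no extract. Each of the 4 groups had 2 Clariom S mouse arrays, which makes 8 in all, and no group was kept without LPS. The sources used here name no vehicle for the control cells, and they leave unstated whether duplicates were separate cultures. All p-values below therefore measure only the spread between these arrays, which may be technical.

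In macrophages, TAM receptors take part in clearing dying cells, a process called efferocytosis, and restrain the response to innate immune signals. Gas6 and protein S, the product of Pros1, bridge the receptor to phosphatidylserine, a lipid that dying cells expose on their surface. The N-terminal domain of both ligands must be carboxylated in a vitamin K-dependent reaction to bind this lipid. Gas6 binds all 3 receptors, whereas protein S acts through Mertk and Tyro3 and not, or hardly, through Axl. Axl is known as the TAM receptor that macrophages induce under inflammatory stimuli, and Mertk as the one that resting and glucocorticoid-treated macrophages carry.

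The 5 genes changed in different directions and at different times (plot of the 5 genes by array). Axl fell about 3-fold with BTEE at both times. Gas6 was higher with BTEE at 17 h and lower at 6 h. Pros1 was lower with BTEE at 6 h and did not pass the test at 17 h. Mertk and Tyro3 passed the test at neither time. A gene was called changed where its Benjamini-Hochberg adjusted p over all 21154 symbols from limma's moderated test was under 0.05. By that measure 1 of the 5 genes was lower and 1 higher at 17 h, where 28.5% of all symbols were called (13.6% lower and 14.9% higher). At 6 h, 3 of the 5 were lower and 0 higher, where 30.2% of all symbols were called (15.7% lower and 14.5% higher). Beside backgrounds of this size the counts of called TAM genes say little, and the sizes of the single changes are given gene by gene.

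**Figure D1:**
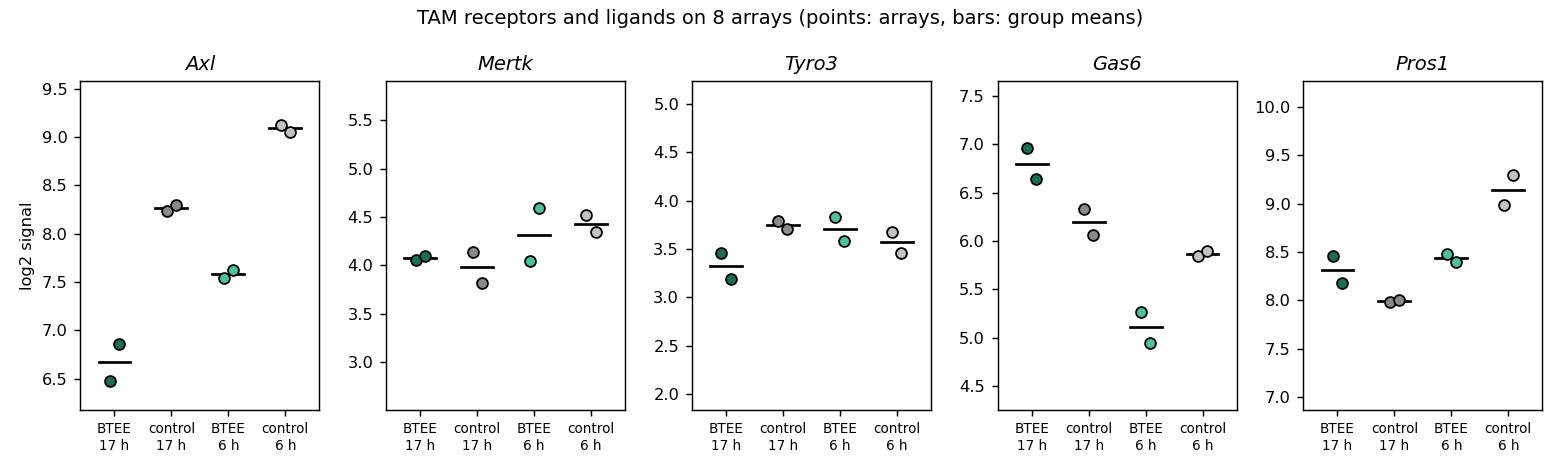
Log2 signal of the 5 genes on each of the 8 arrays, with 1 panel per gene and axes of equal length but different position. Points are arrays and bars are means of the 2 arrays of a group. Axl had 4 separate levels with both BTEE groups under the control of their time, while the 2 BTEE groups of Gas6 lay on opposite sides of the controls.

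Axl is a receptor for Gas6, and its gene lies on chromosome 7 at 25756500 to 25788924 (GRCm38). Its log2 signal was 6.48 and 6.86 in BTEE-treated cells at 17 h, against 8.24 and 8.30 in control cells. After 6 h it was 7.54 and 7.63 in BTEE-treated cells, against 9.13 and 9.05 in control cells. Both BTEE arrays lay below both control arrays at each time, and the 4 groups shared no range of values. The difference was -1.60 at 17 h (SE 0.12, adjusted p = 0.0011), a 3.03-fold fall with a 95% interval of -1.89 to -1.31 on the log2 scale. At 6 h it was -1.505 (SE 0.12, adjusted p = 8.4e-04), a 2.84-fold fall with an interval of -1.799 to -1.21. The study singled out Axl on these same arrays, so its fall here is not independent evidence. The study also shows PCR data for Axl, marked as significantly different from control samples, which were not used here. The 546 symbols that were lower with BTEE at both times, Axl among them, made up 2.58% of all symbols. Axl also fell with the time under LPS. It was lower at 17 h than at 6 h by -0.915 in BTEE-treated cells (adjusted p = 7.9e-04) and by -0.82 in control cells (adjusted p = 0.0012). The BTEE effect at 17 h minus that at 6 h was -0.095 (adjusted p = 0.71) with an interval of -0.51 to 0.32, which leaves room for a moderate difference in either direction. The order of its groups was therefore control at 6 h, control at 17 h, BTEE at 6 h and BTEE at 17 h from high to low. Neighbours in this order were separated on every array.

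Mertk is the receptor most tied to efferocytosis by macrophages and lies on chromosome 2 at 128698915 to 128803162. Signals on the log2 scale were 4.05 and 4.09 in BTEE-treated cells at 17 h, against 4.14 and 3.82 in control cells. At 6 h they were 4.04 and 4.59 in BTEE-treated cells, against 4.52 and 4.34 in control cells. The groups overlapped at both times. The differences were 0.09 at 17 h (adjusted p = 0.75, interval -0.35 to 0.53) and -0.115 at 6 h (adjusted p = 0.67, interval -0.56 to 0.33), so these bounds still hold modest changes in both directions.

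Tyro3, the TAM receptor best known from the nervous system, lies on the same chromosome at 119797740 to 119818104. The log2 signal of Tyro3 was 3.46 and 3.19 in BTEE-treated cells at 17 h, against 3.79 and 3.71 in control cells. The 6 h signals were 3.83 and 3.58 in BTEE-treated cells, against 3.68 and 3.46 in control cells. The groups were separate at 17 h and overlapped at 6 h. The difference was -0.425 at 17 h (adjusted p = 0.051) and 0.135 at 6 h (adjusted p = 0.47), and neither passed the test. Between the times Tyro3 was lower at 17 h by -0.38 in BTEE-treated cells, at the edge of the threshold (adjusted p = 0.0496), and the difference in control cells was 0.18 (adjusted p = 0.29). That call was lost without any 1 of 6 of the 8 arrays (adjusted p between 0.051 and 0.24), the first BTEE array of 17 h and the second of 6 h being the exceptions. The difference was -0.245 without the second BTEE array of 17 h.

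Clariom S data carry no detection call. The signals of sensory receptor genes (olfactory, vomeronasal and taste receptors, chosen by symbol) were therefore taken as a rough measure of background. Whether any of them is expressed in these cells was not examined. These 1454 symbols had a median log2 signal of 3.62, and their 5th and 95th percentiles were 2.83 and 5.09. All 8 arrays of both Mertk and Tyro3 lay inside that range. At such signals a change of either mRNA may not be detectable. The sensory receptor genes passed the test for BTEE as well, 17.7% of them at 17 h and 21.0% at 6 h. The SD of their log2 differences was 0.36 at 17 h and 0.38 at 6 h, against 0.17 from limma's standard errors (root mean square). The largest difference among them, 1.54 at 17 h and 1.45 at 6 h in size, was below that of Axl at each time.

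Gas6, the ligand shared by all 3 receptors, lies on chromosome 8 at 13465374 to 13494535. Gas6 had a log2 signal of 6.96 and 6.64 in BTEE-treated cells at 17 h, against 6.33 and 6.06 in control cells. At 6 h the signal was 5.27 and 4.95 in BTEE-treated cells, against 5.84 and 5.90 in control cells. The groups did not overlap at either time, and the BTEE arrays were the higher pair at 17 h and the lower pair at 6 h. Gas6 was higher with BTEE at 17 h by 0.605 (SE 0.15, adjusted p = 0.027), a 1.52-fold difference. It was lower at 6 h by -0.76 (SE 0.15, adjusted p = 0.012), a 1.69-fold difference. The BTEE effect at 17 h minus that at 6 h was 1.365 (SE 0.22, adjusted p = 0.0053). Of the 5 genes 2 were called for this contrast, both with a positive value, where 31.4% of all symbols were called (14.8% negative and 16.7% positive). In BTEE-treated cells Gas6 was 3.23-fold higher at 17 h than at 6 h (1.69, adjusted p = 9.8e-05), and in control cells the same difference was 0.325 (adjusted p = 0.12). These results differ from the study's statement that it found no effect of BTEE on Gas6, made without naming a measure. With limma's p-values here, Gas6 passed the study's p-value and fold criteria (unadjusted p under 0.05, fold over 1.5) at both times. The study also set thresholds for detection above background and for the Pos/Neg area under the curve, which were not applied here. Its own fold change and p-value for Gas6 were not used.

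The call of Gas6 rested on few arrays. Its adjusted p at 17 h was 0.13 without the first BTEE array and 0.14 without the second control array of that time, and at 6 h it was 0.062 without the second BTEE array and 0.054 without the second control array. The BTEE signals at 6 h were close to the 95th percentile of the sensory receptor genes. Of those genes, 9.35% differed at 17 h and 4.47% at 6 h by as much as Gas6 did.

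Pros1 encodes protein S, a plasma anticoagulant cofactor as well as a TAM ligand, and lies on chromosome 16 at 62854307 to 62929346. The log2 signal of Pros1 was 8.46 and 8.18 in BTEE-treated cells at 17 h, against 7.98 and 8.01 in control cells. Its 6 h values were 8.48 and 8.40 in BTEE-treated cells, against 8.99 and 9.30 in control cells. The groups did not overlap at either time, again with the BTEE arrays higher at 17 h and lower at 6 h. The fall of Pros1 with BTEE at 6 h was -0.705 (SE 0.13, adjusted p = 0.0087), a 1.63-fold difference, while its difference of 0.325 at 17 h did not pass the test (adjusted p = 0.10). The BTEE effect at 17 h minus that at 6 h was 1.03 (SE 0.18, adjusted p = 0.0073). Control cells had 2.22-fold less Pros1 signal at 17 h than at 6 h (-1.15, adjusted p = 2.4e-04). In BTEE-treated cells that difference was -0.12 (adjusted p = 0.48, interval -0.43 to 0.19). These time comparisons use the same arrays as the BTEE comparisons and are not separate evidence.

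**Figure D2:**
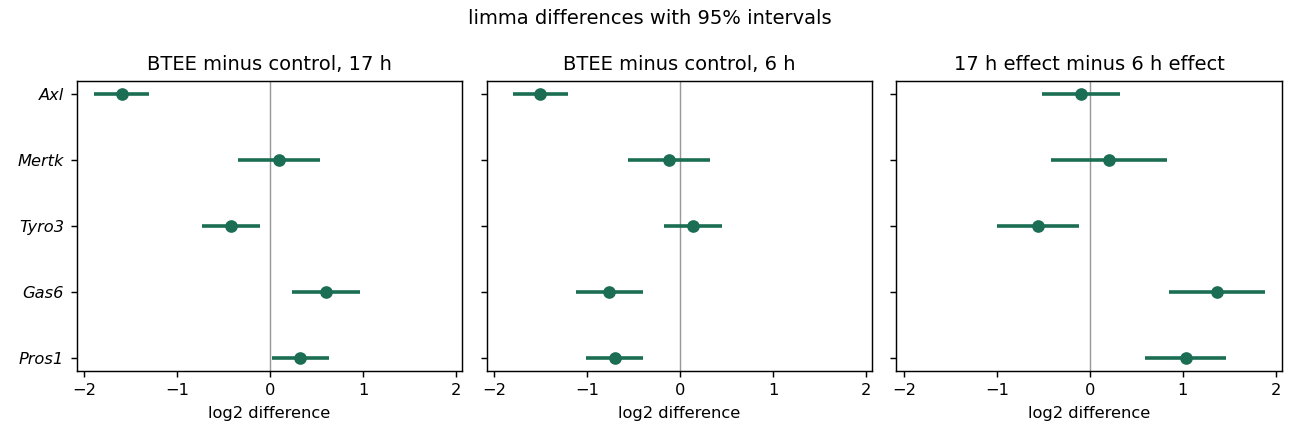
Log2 differences of the 5 genes with 95% intervals from limma, for BTEE minus control at 17 h, BTEE minus control at 6 h, and the first minus the second. The intervals of Axl lie far below 0 at both times and include 0 in the right panel, whereas those of Gas6 and Pros1 lie above 0 there.

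Over the 2 time comparisons, 3 of the 5 genes were called in BTEE-treated cells between 17 h and 6 h, Axl and Tyro3 lower and Gas6 higher, where 47.6% of all symbols were called (24% lower and 23.6% higher). In control cells 2 were called, Axl and Pros1, both lower, where 52.3% of all symbols were called (26.4% lower and 25.8% higher). The median log2 difference of the 5 genes with BTEE was 0.09 at 17 h and -0.705 at 6 h, against 0.005 and -0.005 over all symbols. A bulk array cannot tell fewer cells that express a gene apart from less RNA of that gene per cell. BTEE at the dose used here was above the highest dose for which the study stated no significant cytotoxicity. Its part in these differences was not tested.

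The labelled cell type was borne out by its markers. The 8 macrophage genes examined, among them Csf1r, Cd68 and the transcription factor Spi1, had mean log2 signals between 12.25 and 18.02. None of 5 B cell genes or 4 fibroblast genes averaged above 5.41, and of 5 T cell genes Cd4 alone averaged more (7.69). The summed macrophage signal was 19.81 in BTEE-treated arrays at 17 h, against 19.86 in control arrays, and 19.81 to 19.83 at 6 h, against 19.90 to 19.92, and so was slightly lower with BTEE at both times. Summed fibroblast signal was 6.19 to 6.49 in BTEE-treated arrays at 17 h, against 6.26 to 6.28 in control arrays, and 6.18 to 6.23 at 6 h, against 6.79 to 6.94. It moved in the direction of Axl at 6 h and overlapped at 17 h. Of the 4 fibroblast genes, Col1a1 alone was called at 6 h (-1.085, adjusted p = 0.0027). Summed T cell signal was 8.06 to 8.09 with BTEE at 17 h, against 8.30 to 8.41 in control arrays, and 8.02 to 8.03 at 6 h, against 7.82 to 7.91, a shift down with BTEE at 17 h and up at 6 h. Cd4, the brightest gene in that sum, differed by -0.33 at 17 h (adjusted p = 0.028) and 0.205 at 6 h (adjusted p = 0.11). These sums therefore rest largely on single genes and do not show other cell types. Summed B cell signal was slightly higher at 17 h (6.21 to 6.26 with BTEE, against 6.18 to 6.19) and overlapped at 6 h (6.29 to 6.39, against 6.34 to 6.37). The part of these signals in the TAM gene differences was not tested. Over all probe sets, duplicates correlated with r of 0.9984 to 0.9987, and BTEE-treated with control samples at a given time with r of 0.9942 to 0.9948.

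Axl was then set beside the other receptor tyrosine kinases, the family of surface receptors to which the TAM receptors belong (plot of 57 receptor tyrosine kinases). Of 57 members measured, 10 fell and 4 rose with BTEE at 17 h, while 6 fell and 6 rose at 6 h. The shares called were 24.6% and 21.1%, below the 28.5% and 30.2% of all symbols. The median log2 difference was -0.075 at 17 h and 0.025 at 6 h, against 0.005 and -0.005 over all symbols. Axl had the most negative difference of the 57 at both times. At 17 h the next ones were Epha1, an ephrin receptor (-0.64, adjusted p = 0.020), and Flt1, the VEGF receptor of monocytes and macrophages (-0.625, adjusted p = 0.0077). At 6 h the next was Flt1, with a log2 signal of 9.51 and 9.66 in BTEE-treated cells, against 10.80 and 10.82 in control cells (-1.225, adjusted p = 9.6e-04). The members lower with BTEE at both times were Axl, Flt1 and Ntrk3, a neurotrophin receptor named after its values were seen (-0.44, adjusted p = 0.031, and -0.485, adjusted p = 0.021). The largest rises were those of Ddr2, a collagen receptor, at 17 h (0.835, adjusted p = 0.013) and of Erbb4, a neuregulin receptor, at 6 h (0.93, adjusted p = 0.0035). Epha1 lost its call without any 1 of 3 of the 17 h arrays (adjusted p between 0.069 and 0.099), the first BTEE array being the exception, and was at -0.42 without the second BTEE array, and Ddr2 without the second control array of 17 h (adjusted p = 0.077). The mean log2 signal reached 6 for 9 of the 57 genes, and those of Ntrk3 (3.97), Ddr2 and Erbb4 lay below the 95th percentile of the sensory receptor genes. The calls of Ntrk3 were not checked without single arrays.

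**Figure D3:**
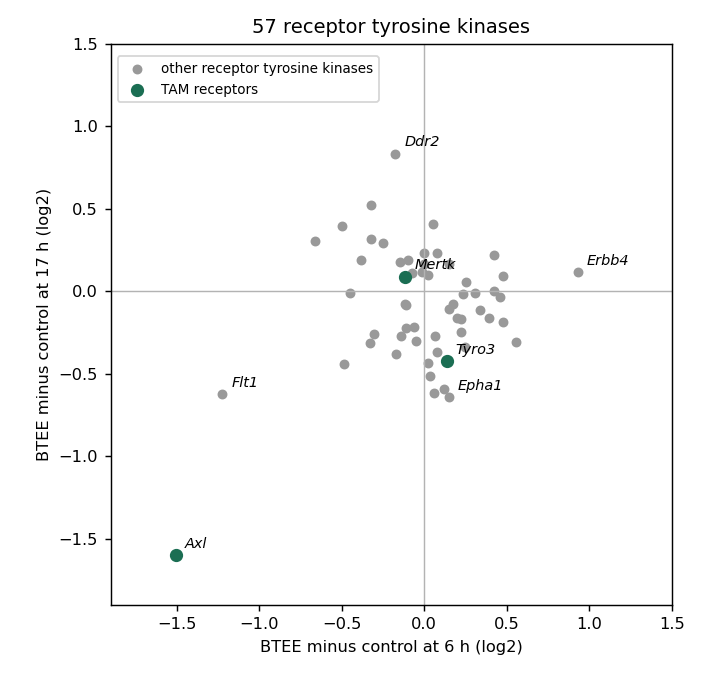
Log2 difference of 57 receptor tyrosine kinases between BTEE-treated and control cells at 17 h (y axis) and at 6 h (x axis), with the 3 TAM receptors in green. Axl lies alone in the lower left corner, Flt1 lies between it and the rest, and Mertk and Tyro3 lie inside the main group.

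Genes next to the TAM genes on the chromosome gave a mixed picture. Hnrnpul1, an RNA-binding protein gene 0.2 kb from Axl, was lower with BTEE at 17 h (-0.41, adjusted p = 0.0095), and at 6 h its difference was 0.09 (adjusted p = 0.41). Cyp2s1 and Cyp2b10, cytochrome P450 genes on the other side of Axl, were also lower at 17 h (-0.335, adjusted p = 0.042, and -0.465, adjusted p = 0.027) and not called at 6 h. With BTEE at 17 h the log2 signals of Cyp2s1 (4.88 and 5.06) and Cyp2b10 (4.76 and 4.57) lay inside the range of the sensory receptor genes. Of the 4 genes nearest to Axl, 3 were thus lower at 17 h, each by less than Axl, where 13.6% of all symbols were lower, and 0 were called at 6 h, where 30.2% of all symbols were. The interval of Gas6 overlaps that of Tmem255b, so that probes of one could in principle read RNA of the other. Tmem255b was higher with BTEE at 6 h (0.43, adjusted p = 0.014), opposite to Gas6, and differed by 0.115 at 17 h (adjusted p = 0.38). Rasa3, a Ras GTPase-activating protein gene 72.7 kb from Gas6, was lower with BTEE at 17 h (-0.525, adjusted p = 0.011) and higher at 6 h (0.63, adjusted p = 0.0054), the reverse of Gas6. Arl13b, the cilium gene beside Pros1, was higher at 6 h (0.405, adjusted p = 0.013), where Pros1 was lower. The calls of these neighbours were not checked without single arrays.

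Further lists of genes around the TAM system were counted in the same way (plot of the gene lists). The first held other reported TAM ligands and the enzymes that carboxylate Gas6 and protein S. Of its 5 measured genes, 0 fell and 1 rose at 17 h, while 1 fell and 2 rose at 6 h, with medians of -0.16 and 0.08. These are 1 and 3 called genes of 5, where 28.5% of all symbols were called at 17 h and 30.2% at 6 h. Lgals3, galectin-3 and a reported ligand of Mertk, was higher at 17 h (0.22, adjusted p = 0.044) and lower at 6 h (-0.235, adjusted p = 0.034), but neither call survived the loss of any 1 of the 8 arrays (adjusted p between 0.061 and 0.14 at 17 h and between 0.050 and 0.13 at 6 h). Ggcx, the vitamin K-dependent carboxylase itself, was higher at 6 h (0.53, adjusted p = 0.0056), with -0.16 at 17 h (adjusted p = 0.21). Vkorc1 and Vkorc1l1, which recycle vitamin K, were called at neither time.

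Genes of phosphatidylserine exposure, the scramblases and flippases that set how much of the lipid faces outward, numbered 11. With BTEE 2 fell and 1 rose at 17 h, and 3 fell and 1 rose at 6 h. The shares called, 27.3% and 36.4%, were near the 28.5% and 30.2% of all symbols. Atp8a1, a flippase, was lower at 17 h (-0.425, adjusted p = 0.0059), and Xkr8, the caspase-activated scramblase, was lower at 6 h (-0.755, adjusted p = 0.0036). Ano6, the calcium-activated scramblase, differed by 0.015 at 17 h and -0.135 at 6 h and was called at neither time.

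Other efferocytosis receptors and bridging molecules numbered 26. With BTEE 5 fell and 7 rose at 17 h (median 0.07), and 11 fell and 1 rose at 6 h (median -0.10). Over all symbols 13.6% fell and 14.9% rose at 17 h, and 15.7% fell and 14.5% rose at 6 h. Itgav, the integrin subunit that binds phosphatidylserine through Mfge8, was lower at both times. Its log2 signal was 10.51 and 10.52 in BTEE-treated cells at 17 h, against 11.22 and 11.17 in control cells, and 12.18 and 12.07 at 6 h, against 12.77 and 12.71. The differences of Itgav were -0.68 (adjusted p = 0.0019) and -0.615 (adjusted p = 0.0022). Trem2 and Adgrb1 took the course of Gas6, higher at 17 h and lower at 6 h. Trem2, a lipid-sensing receptor of macrophages, had a log2 signal of 10.31 and 10.15 with BTEE at 17 h, against 9.59 and 9.56 in control cells, and of 12.46 and 12.56 at 6 h, against 12.92 and 12.91. Its differences were 0.655 (adjusted p = 0.0027) and -0.405 (adjusted p = 0.012), and the second lost its call without the first BTEE (adjusted p = 0.064) or the first control array of 6 h (adjusted p = 0.050). Adgrb1, a phosphatidylserine receptor, differed by 0.755 (adjusted p = 0.0025) and -0.60 (adjusted p = 0.0045), at signals inside the range of the sensory receptor genes. Havcr2, the receptor Tim-3, took the opposite course with -0.565 at 17 h (adjusted p = 0.0054) and 0.715 at 6 h (adjusted p = 0.0024). Mfge8, a bridging molecule that works beside Gas6 and protein S, was higher at 17 h (0.38, adjusted p = 0.015) and differed by 0.055 at 6 h (adjusted p = 0.64). Its call was lost without any 1 of 3 of the 17 h arrays (adjusted p between 0.052 and 0.081), the second BTEE array being the exception.

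Receptor shedding, by which proteases cut Axl and Mertk from the cell surface, was represented by 5 genes. None of them was called at 17 h and 1 was lower at 6 h, where 28.5% and 30.2% of all symbols were called. That gene was Rhbdf1 (-0.74, adjusted p = 0.0043), which encodes an inactive rhomboid protein that carries the protease Adam17 through the secretory pathway. The mean log2 signal of Rhbdf1, 5.02, lay inside the range of the sensory receptor genes. Adam10 and Adam17, the proteases themselves, differed by -0.145 and -0.075 at 17 h and by 0.04 and -0.14 at 6 h, and neither was called.

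**Figure D4:**
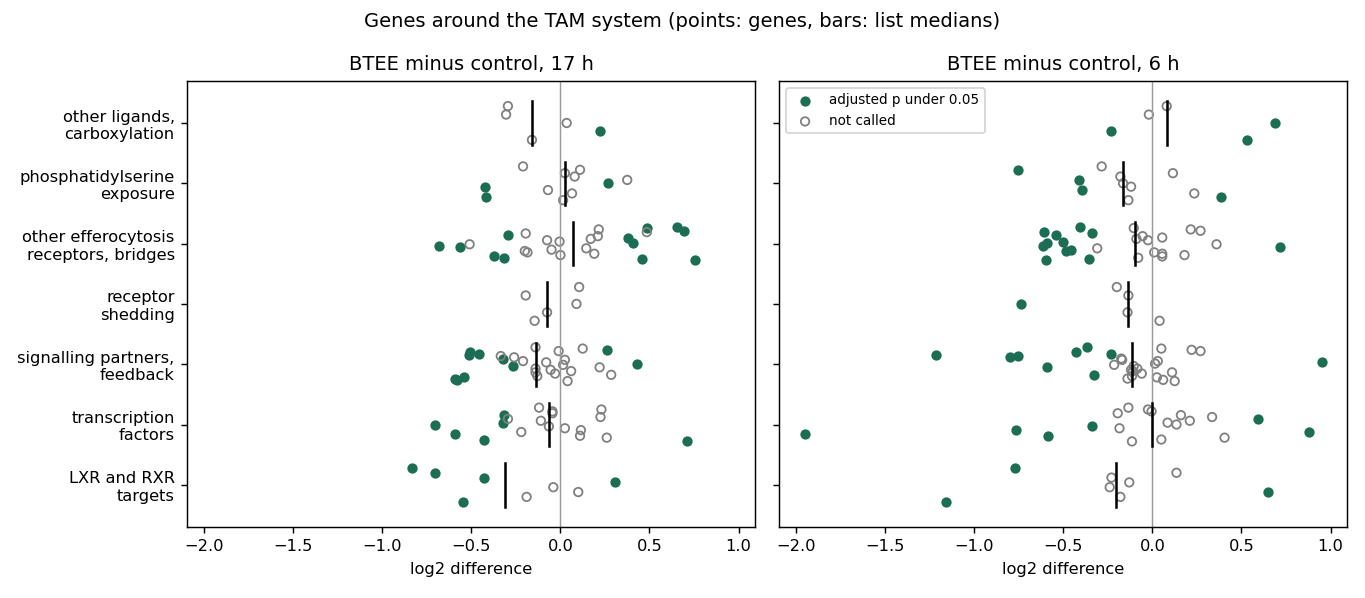
Log2 differences of single genes in 7 lists around the TAM system between BTEE-treated and control cells at 17 h (left) and 6 h (right). Filled points passed an adjusted p under 0.05, open points did not, and vertical bars are list medians. The efferocytosis list has filled points on both sides of 0 at 17 h, and at 6 h 11 of its 12 filled points lie to the left.

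Signalling partners and feedback outputs of the TAM receptors numbered 28, of which 8 fell and 2 rose at 17 h, and 8 fell and 1 rose at 6 h. The shares called were 35.7% and 32.1%, against 28.5% and 30.2% of all symbols, and the medians were -0.135 and -0.11. The called genes of this list leaned to falls, whereas over all symbols 13.6% fell and 14.9% rose at 17 h. At 6 h 15.7% of all symbols fell and 14.5% rose. Src, a kinase that acts downstream of receptor tyrosine kinases, was lower at both times. Src had a log2 signal of 7.80 and 7.79 in BTEE-treated cells at 17 h, against 8.32 and 8.30 in control cells, and of 8.68 and 8.80 at 6 h, against 9.94 and 9.97. The difference of Src was -0.515 (adjusted p = 0.0038) at 17 h and -1.215 (adjusted p = 6.0e-04) at 6 h. The ubiquitin ligases Cbl and Cblb, which mark activated receptors for degradation, were lower at 17 h (-0.59, adjusted p = 0.0026, and -0.54, adjusted p = 0.0057) and not called at 6 h. TAM receptors are known to signal with the interferon receptor Ifnar1 to induce the suppressors Socs1 and Socs3. Ifnar1 was called at neither time (0.06 and -0.11). Socs1 and Socs3 were lower at 6 h (-0.80, adjusted p = 0.028, and -0.755, adjusted p = 0.0063) and at 17 h differed by -0.26 (adjusted p = 0.39) and -0.335 (adjusted p = 0.091). By PCR the study saw Socs1 tend to increase with BTEE at 6 h, opposite to the array value, and tend to decrease at 17 h. The 17 h array signals of Socs1, 3.41 to 3.69, lay inside the range of the sensory receptor genes. The Socs1 call at 6 h was lost without either BTEE array of that time (adjusted p = 0.13 and 0.066), and its size rested on the control arrays, with -1.16 without the first and -0.44 without the second. LPS and interferon act on these genes through other receptors as well.

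Transcription factors reported to control TAM genes in other systems included 19 measured genes. With BTEE 5 fell and 1 rose at 17 h, while 4 fell and 2 rose at 6 h, with medians of -0.065 and -0.005. The share called was 31.6% at each time, against 28.5% and 30.2% of all symbols. Of those reported for Axl, Sp1 was lower at 17 h (-0.315, adjusted p = 0.020) and at 6 h differed by 0.16 (adjusted p = 0.14). Sp3 and Jun were called at neither time. Sp3 differed by -0.045 at 17 h and -0.195 at 6 h. Jun differed by 0.26 at 17 h (adjusted p = 0.17) and 0.405 at 6 h (adjusted p = 0.0505), with both BTEE arrays above both control arrays each time. The Sp1 call was lost without any 1 of the 4 arrays of 17 h (adjusted p between 0.068 and 0.091). Hif1a, the hypoxia-inducible factor, was lower at 17 h (-0.43, adjusted p = 0.0051) and differed by 0.05 at 6 h (adjusted p = 0.60). Averaged over both times, Jun was called higher (0.3325, adjusted p = 0.032) and Hif1a lower (-0.19, adjusted p = 0.024). Sp1 and Sp3 were not called on that average. These values are mRNA signals and not factor activity, and the part of these factors in the Axl difference was not tested.

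Maf, a factor of macrophage identity, was lower at both times. The signal of Maf was 3.84 and 3.58 in BTEE-treated cells at 17 h, against 4.22 and 4.38 in control cells. At 6 h Maf had 3.99 and 4.05 in BTEE-treated cells, against 6.05 and 5.89 in control cells. Only the control arrays at 6 h lay above the range of the sensory receptor genes. The differences of Maf were -0.59 at 17 h (adjusted p = 0.010, or 0.062 without the second control array) and -1.95 at 6 h (adjusted p = 6.0e-04). Nr1h3 encodes LXR alpha, one of the oxysterol receptors known to induce Mertk in macrophages. It was lower at 17 h, with 6.85 and 6.78 in BTEE-treated cells, against 7.64 and 7.40 in control cells (-0.705, adjusted p = 0.014), and differed by 0.135 at 6 h (adjusted p = 0.53). Its call was lost without any 1 of 3 of the 17 h arrays (adjusted p between 0.051 and 0.082), the second control array being the exception.

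Among 8 measured targets of LXR and its partner RXR, 4 fell and 1 rose with BTEE at 17 h (median -0.31), and 2 fell and 1 rose at 6 h (median -0.205). The shares called were 62.5% and 37.5%, against 28.5% and 30.2% of all symbols. Nr1h3 was among the falls at 17 h and is counted among the factors too, and its call and that of Mylip, which encodes a ligase that degrades the LDL receptor, were each lost without any 1 of 3 of the 17 h arrays. Abca1, the cholesterol exporter, had a log2 signal of 10.76 and 10.64 in BTEE-treated cells at 17 h, against 11.27 and 11.22 in control cells, and of 9.07 and 8.99 at 6 h, against 10.27 and 10.11. Its differences were -0.545 (adjusted p = 0.0058) and -1.16 (adjusted p = 7.8e-04). Tgm2, a transglutaminase that takes part in efferocytosis, was also lower at both times (-0.835, adjusted p = 0.0039, and -0.77, adjusted p = 0.0046). Apoe, which carries lipid out of macrophages, was higher at 6 h (0.65, adjusted p = 0.0042), and Abcg1 was called at neither time.

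For each TAM gene whose group means spanned at least 1 log2 unit, the 5 genes with the most similar course were found by Pearson's r over the 8 arrays, among 3392 symbols that averaged at least 6 and spanned at least 1. The 8 arrays stand for 4 groups, so these values describe 4 levels and are given with no test. For Axl they were Ids, a lysosomal sulfatase (r = 0.99), Ifi27l2a, an interferon-induced gene (0.98), Timp1, an inhibitor of matrix metalloproteinases (0.98), Tnfsf15, a cytokine of the TNF family (0.98), and Tgm2 (0.97). Since they were chosen for their likeness, that they share the course of Axl is no result. Timp1 differed by -1.67 at 17 h and -1.37 at 6 h, and its signals of 4.78 and 4.86 with BTEE at 17 h lay inside the range of the sensory receptor genes. For Gas6 the likest genes were Nat9, Iqcb1, N4bp2l2, Nfu1 and Lta4h (r between 0.97 and 0.99). Lta4h, which makes the chemoattractant leukotriene B4, differed by 0.33 at 17 h and -0.465 at 6 h. For Pros1 they were Fance, Rab29, Rmdn3, Scyl3 and Coq2 (r between 0.97 and 0.98). Their 17 h differences lay between 0.275 and 0.445, on either side of that of Pros1.

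**Figure D5:**
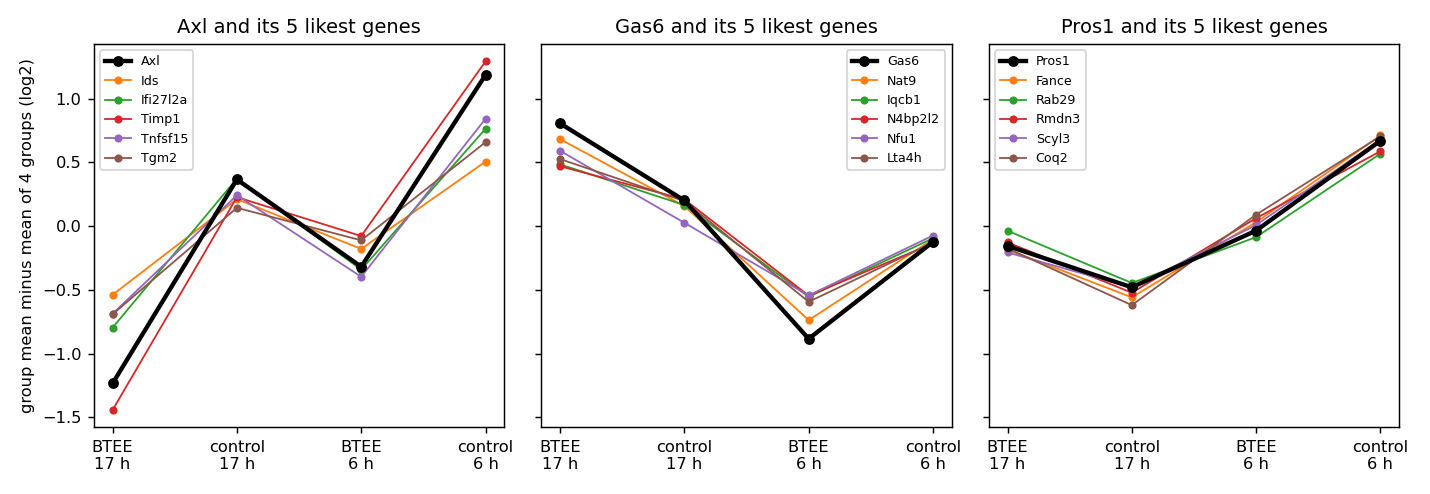
Group means of Axl, Gas6 and Pros1 (black) and of the 5 genes most like each (coloured), minus the mean of the 4 groups, in log2 units, with lines that only join the points of a gene. Axl and its likest genes are lowest with BTEE at 17 h and highest in control cells at 6 h, those of Gas6 are lowest with BTEE at 6 h, and those of Pros1 are highest in control cells at 6 h.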

How the data were processed

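The authors hybridised RNA to Clariom S mouse arrays, processed them by SST-RMA in the Transcriptome Analysis Console (version 4.0.1 in the series text) and deposited log2 signals for 22206 probe sets. The authors' comparison tables also hold fold changes, p-values and FDR values, and only their gene symbols and group averages were used (the averages differed from those computed here by at most 0.005). Probe sets with several symbols (836) or none (3) and dimmer ones of a symbol (213) were left out, which gave 21154 symbols. Of these, 19689 matched a RefSeq symbol of GRCm38, 866 an older one and 599 none. Each TAM gene had 1 probe set. Array medians lay between 5.25 and 5.28.

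The limma package (3.58.1, R 4.3.3) estimated a mean for each group from all 8 arrays (4 residual degrees of freedom, prior 3.12), and p-values were adjusted by Benjamini-Hochberg over all symbols. Standard errors are moderated. Precision is limited by having 2 arrays per group, for which an exact permutation test cannot reach 0.05. Members, gene lists and tests were chosen with earlier results of these data known. Named were all members, up to 4 genes with the largest called change per list and time, 16 genes chosen by role, and 5 likest genes per member. Chromosomal neighbours were given beside the member they adjoin, and Ntrk3, Ano6, Vkorc1, Vkorc1l1 and Abcg1 were added after their values were seen. Alternatives were other scalings, filters, priors, thresholds, sample sets and probe set summaries, a replicate block, an added spread from sensory receptor genes, averaged duplicates and leaving out each array. Some listed genes are counted but not reported singly here. Sequences were not used here.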

Additional observations from a re-analysis of the deposited data

Results flagged for a closer look

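The effect of BTEE differed between the times for 2 of the 5 TAM genes and for 31 of 46 named genes of the surrounding lists by the interaction test in limma (adjusted p under 0.05). Most of these 46 were named for a large called change at 1 time, which favours such a difference, so their share cannot be set against that of all symbols. Values are the BTEE effect at 17 h minus that at 6 h on the log2 scale. Both ligands were positive, Gas6 with 1.365 and Pros1 with 1.03. Among other ligands and the carboxylase, the value was 0.455 for Lgals3, -0.69 for Ggcx and -0.655 for Tulp1. Genes of phosphatidylserine exposure gave -0.805 for Atp10a, 0.43 for Atp8b4, 0.865 for Xkr8 and 0.79 for Plscr1. Efferocytosis receptors gave 1.355 for Adgrb1, 1.06 for Trem2, -1.28 for Havcr2 and 1.095 for Stab1, and the shedding gene Rhbdf1 gave 0.83.

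Among transcription factors, positive values were those of Maf (1.36), Myc (0.88) and Fos (0.825). Negative values were those of Nr1h3 (-0.84), Sp1 (-0.475), Hif1a (-0.48) and Rxra (-0.885). Signalling genes gave -0.45 for Cbl, -0.64 for Akt2, -0.565 for Cblb, 0.70 for Src and -1.03 for Plcg1. The LXR targets Abca1 and Apoe gave 0.615 and -0.55. Of the receptor tyrosine kinases, Ddr2 gave 1.01, Epha1 -0.79, Flt1 0.60, Erbb4 -0.815 and Pdgfrb -0.86.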

How the results depend on the processing

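Axl kept its direction and its call at both times under every scaling, filter, prior, probe set and sample choice tried, and without each array in turn (-1.79 to -1.41 at 17 h and -1.55 to -1.46 at 6 h). Its exceptions were 2 settings. Adding the spread of the sensory receptor genes to the standard errors left -1.60 at 17 h and -1.505 at 6 h (adjusted p = 0.997 at each), with 0 of all symbols called and 523 and 576 at an unadjusted p under 0.05. Over both times (-1.5525), Axl was not called with that spread (adjusted p = 0.998) or with duplicate arrays averaged (adjusted p = 0.23, with 0 symbols called and 915 at an unadjusted p under 0.05). With the sensory spread, 0 of the 5 TAM genes were called in any comparison. Against a fold of 1.5, 1 was called at 17 h, 1 at 6 h, 0 for the difference between the times, and 1 in either time comparison. At 17 h, 4 were called with a trended robust prior and 1 with no moderation (2 as reported), under which Gas6 lost its call at both times, and 1 or 2 without single arrays. Above a mean signal of 6, which drops Gas6 with Mertk and Tyro3, Pros1 gained a call at 17 h, and 1 was called for the difference and 1 between the BTEE times.

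Replicate numbers did not pair the arrays (r of deviations between -0.001 and 0.02). With the replicate block 3 TAM genes were called at 17 h, 3 at 6 h and 3 for the difference, Tyro3 being the one gained (adjusted p = 0.016 and 0.018). Between the BTEE times, Pros1 was 0.0025 after quantile normalization and -0.26 to 0.02 without single arrays. Other values that crossed 0 without single arrays were not called. They were the difference between the times of Axl (-0.285 to 0.095) and all of Mertk but its control times (17 h -0.07 to 0.25, 6 h -0.39 to 0.16, difference -0.07 to 0.48, BTEE times -0.52 to 0.03, mean -0.15 to 0.125). They also included the mean of Gas6 (-0.1575 to 0.0025), at 17 h Sp3 (-0.12 to 0.03), Tulp1 (-0.005 to 0.075), Xkr8 (-0.025 to 0.245), Rhbdf1 (-0.04 to 0.22) and Erbb4 (-0.065 to 0.295), and at 6 h Mfge8 (-0.01 to 0.12), Nr1h3 (-0.08 to 0.35), Akt2 (-0.05 to 0.17) and Cblb (-0.045 to 0.095). Of 98 tests of other named genes 54 were called. Of these 54 calls, 51 were lost against a fold of 1.5, 54 with the sensory spread, and between 7 and 12 without a single array. The causes were not tested. Signals near background limit Mertk and Tyro3 most.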
